A study of Mus musculus with 6 samples.

Results

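Haem is made from glycine and succinyl-CoA by a chain of enzymes, and the account here follows 8 genes of that chain in mouse spleen 24 h after total body irradiation. The genes are Alas1, Alas2, Alad, Uros, Urod, Cpox, Ppox and Fech, taken by symbol from the gene names on the array and described in pathway order. They had 10 probes, 2 each for Alas1 and Uros and 1 for each of the other genes, out of 55681 distinct probes, control spots aside, which carry 34797 gene names. All 10 probes were well above background on all 6 arrays, none was saturated, and none was removed as an outlier, so every member is accounted for.

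The chain starts and ends in the mitochondrion. Aminolevulinate synthase joins glycine to succinyl-CoA, and vertebrates have a housekeeping form, encoded by Alas1, and an erythroid form, encoded by the X-linked gene Alas2. The following steps to coproporphyrinogen run in the cytosol, and coproporphyrinogen oxidase, protoporphyrinogen oxidase and ferrochelatase complete haem in the mitochondrion. All cells make some haem for cytochromes and other haemoproteins, but the largest users in mammals are red cell precursors, which need it for haemoglobin and raise these genes as they mature. In the mouse the red pulp of the spleen is a site of red cell production in the adult as well, and its macrophages degrade haem from old red cells.

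RNA came from whole splenocytes of mice harvested 24 h after 900 cGy of total body irradiation with X-rays, and from those of resting mice given 0 cGy. All mice were of the strain B10.BALB-16.C2A, called congenic in the series title. Each group had 3 one-colour Agilent arrays, each array held RNA pooled from 3 mice, and the text calls these pools replicates 1 to 3 of their group. Each value is the log2 of a probe's signal over its array's 75th percentile, so that a difference of 1 is a 2-fold difference; it compares one probe between arrays, not one gene with another. The number of arrays limits the precision, and the spread behind each p-value is that of pools rather than of single mice, with nothing in the labels on how pools were made up.

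Between 39034 and 41266 probes were well above background on an array. All 6 B cell, 6 T cell and 10 macrophage markers were well above background on at least 1 array of each group. Of 39683 probes tested with limma, 57.5% passed a threshold of 0.05 on the p adjusted over all of them (Benjamini-Hochberg), 31% as lower and 26.4% as higher in irradiated spleens, and the median log2 change was -0.07. When arrays were scaled to their spike-in controls instead, 41.3% were lower and 16.5% higher. The 3 unirradiated pools were not alike in 20 erythroid markers. The log2 of their summed signal, called summed log2 level below, was 8.49, 8.47 and 8.08 in irradiated replicates 1 to 3. In the unirradiated ones it was 10.15, 10.09 and 9.46. That sum is set mostly by the brightest genes. Hba-a1, a globin gene, was at 8.18, 8.17 and 7.8 in irradiated pools, against 8.78, 8.94 and 8.61 in unirradiated ones. The mean log2 level, which weights each marker alike, was -2.22, -2 and -2.38 in irradiated pools. In unirradiated pools that mean was 3.89, 3.57 and 2.34. Unirradiated replicate 3 stood apart in dividing cell markers too, with summed log2 levels of 3.81, 3.71 and 3.70 in irradiated pools, against 7.26, 6.98 and 5.74 in unirradiated ones, and the members' changes are also given without it. In bulk tissue, fewer cells of a type and less RNA per cell cannot be told apart.

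After irradiation every gene of the chain except Alas1 was lower, by 2.94-fold to 13.3-fold. Of the 10 probes 8 fell, 1 rose and 1 did not pass, where 31% of all probes tested fell and 26.4% rose. All 8 that fell were at least 2-fold lower, and 9.45% of all probes tested both passed the threshold and were at least 2-fold lower. The irradiated and unirradiated arrays of these 8 did not overlap, which was true of 35.9% of all probes in this direction. The median over the 10 probes was -2.21. The plot of levels by array shows each value.

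**Figure D1:**
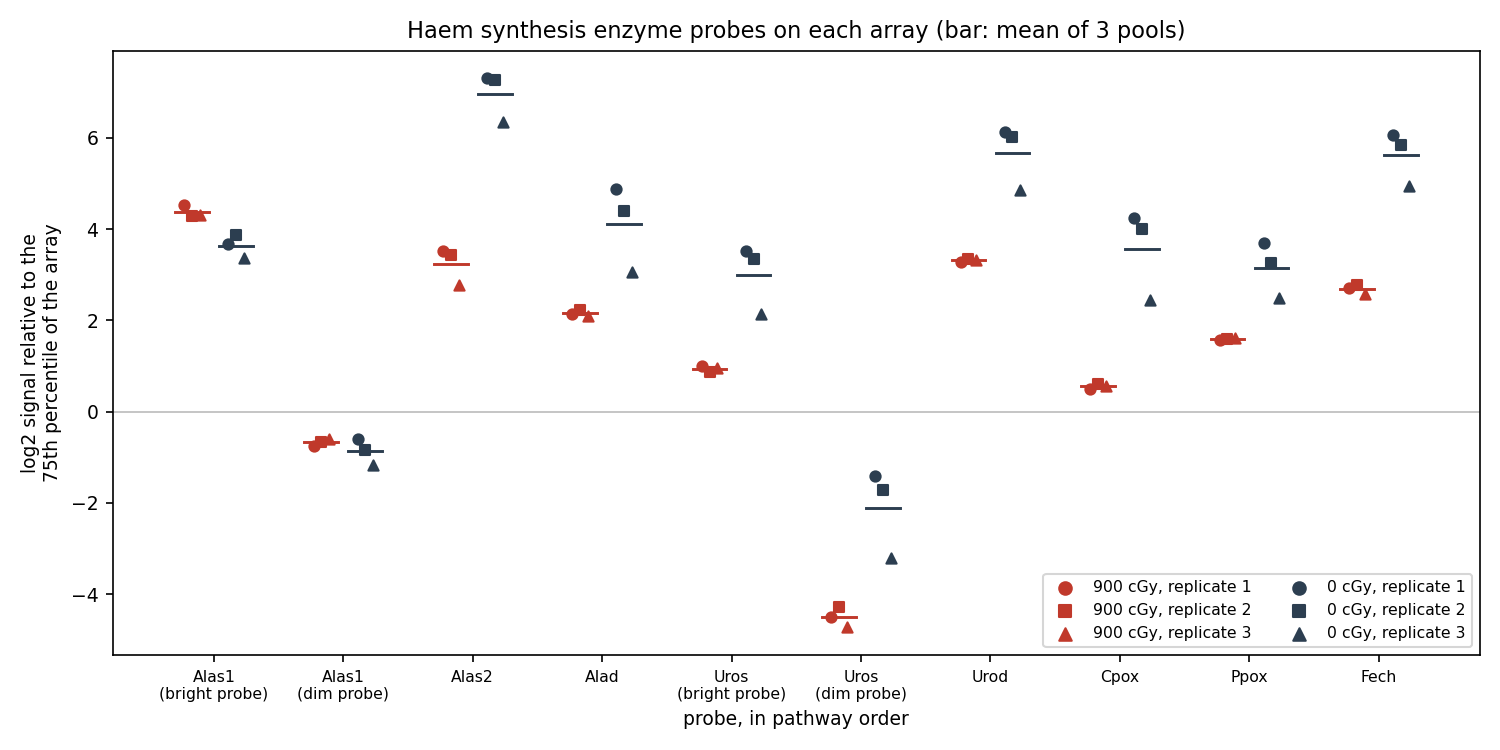
Log2 signal over the array's 75th percentile for the 10 probes of the 8 genes, in pathway order along the x axis; each point is 1 array of 3 pooled mice (red, 900 cGy; dark blue, 0 cGy; circle, square and triangle for replicates 1, 2 and 3) and each bar is a group mean. The irradiated arrays lie below the unirradiated ones for every gene except Alas1, and the unirradiated triangles are the lowest of their group for all 10 probes.

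The first enzyme's 2 forms differed: Alas2 fell, while Alas1 rose by its bright probe, a call that was lost with spike-in scaling. Alas2, the erythroid aminolevulinate synthase whose loss causes X-linked sideroblastic anaemia in humans, had levels of 3.52, 3.44 and 2.77 on the irradiated arrays, against 7.31, 7.26 and 6.35 on the unirradiated ones. The groups lay far apart, and replicate 3 was the lowest of both. Alas2 fell by a log2 change of -3.73 ± 0.32 (SE; limma adjusted p = 0.000187), a 13.3-fold decrease that left 7.51% of the unirradiated signal. Only 0.28% of all probes tested had a lower log2 change. Without unirradiated replicate 3 the change was -4.05. The Alas2 probe is on the plus strand of chromosome X (mm9, 147004993 to 147005052).

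Alas1, the form that other tissues use and that haem represses in liver, was measured by a bright and a dim probe. The bright probe (chromosome 9, 106136284 to 106136343 of mm9, minus strand) had levels of 4.52, 4.29 and 4.32 on the irradiated arrays, against 3.68, 3.87 and 3.37 on the unirradiated ones. The groups did not overlap, as for 29.9% of all probes tested in this direction. The bright probe rose by a log2 change of 0.74 ± 0.15 (SE; limma adjusted p = 0.00545), a 1.67-fold increase. With spike-in scaling, which moved the median of all genes to -0.34 in place of -0.06, its change was 0.45 and did not pass (adjusted p = 0.0677). With the arrays of slide row 1 alone it was 0.89 (adjusted p = 0.0501), and without unirradiated replicate 3 it was 0.61.

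The dim Alas1 probe (chromosome 9, 106135796 to 106135855, minus strand) had levels of -0.75, -0.66 and -0.59 in irradiated spleens, against -0.59, -0.84 and -1.17 in unirradiated spleens. These groups overlapped. Its change was 0.20 ± 0.16 (SE; limma adjusted p = 0.314), -0.09 with spike-in scaling and 0.05 without unirradiated replicate 3. The change of the dim probe minus that of the bright probe was -0.54 (exact two-sided permutation p = 0.1; with 3 arrays on each side no lower p is possible). The dim probe lies further along in the direction of transcription, with 428 bases between the probes. The last 30 bases of both probes are shown because the bright one ends just after the letters AATAAA, the usual polyadenylation signal, which are in capitals:
Alas1 bright probe: agaattgtctttatatgtgaAATAAAttat
Alas1 dim probe: tgtatttgggtcttgctctttttatacaat
AATAAA was present in 10.1% of the 55681 probes, and in 3 of the 10 described here, the others being the dim Uros probe and the Fech probe.

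Within each array the log2 level of Alas2 minus that of the bright Alas1 probe lay between -1.56 and -0.86 after irradiation, against a range of 2.97 to 3.63 without it. As a ratio of 2 probes this is no ratio of transcript amounts, but its change does not depend on how arrays are scaled. It changed by -4.47 ± 0.29 (SE; 95% interval -5.27 to -3.68 from the spread within groups; two-sided exact permutation p = 0.1, the smallest possible, also after adjustment over 7 pairs).

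The cytosolic enzymes were all lower. Alad, which condenses aminolevulinate molecules to porphobilinogen and is the enzyme that lead inhibits, had levels of 2.14, 2.24 and 2.09 in irradiated spleens, against 4.88, 4.40 and 3.06 in unirradiated spleens. The irradiated pools were nearly equal, while the unirradiated ones spread over 1.81. Alad fell by a log2 change of -1.96 ± 0.44 (SE; limma adjusted p = 0.00856), or 3.88-fold. Without unirradiated replicate 3 its change was -2.48. It did not pass with slide row as a block (-1.97, adjusted p = 0.0589) or with row 1 alone (adjusted p = 0.0873). Its probe is on chromosome 4 at 62172559 to 62172618 of mm9, minus strand.

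Uros, the synthase that closes the tetrapyrrole ring in its physiological isomer and is deficient in congenital erythropoietic porphyria, fell by both of its probes. Its bright probe (chromosome 7, 140878069 to 140878128, minus strand) had levels of 1.01, 0.88 and 0.95 after irradiation, against 3.52, 3.35 and 2.14 without it. This was a 4.16-fold decrease (log2 change -2.06 ± 0.35 SE; limma adjusted p = 0.00281). The dim probe (chromosome 7, 140883818 to 140883876, minus strand), annotated with a cDNA clone rather than a RefSeq transcript, had levels of -4.49, -4.28 and -4.73, against -1.42, -1.71 and -3.21. It fell by -2.39 ± 0.45 (SE; adjusted p = 0.00439, limma), and by -1.54 with normexp background correction. Without unirradiated replicate 3 the bright and dim probes were at -2.49 and -2.94. The dim probe's change differed from that of the bright probe by -0.33 (two-sided exact permutation p = 0.2).

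Urod, which decarboxylates uroporphyrinogen and is the enzyme affected in porphyria cutanea tarda, had levels of 3.29, 3.34 and 3.33 in irradiated spleens, against 6.14, 6.02 and 4.86 in unirradiated spleens. The irradiated pools spanned only 0.06, so that nearly all of the spread lay in the unirradiated group. Urod fell 5.11-fold (log2 change -2.35 ± 0.33 SE; limma adjusted p = 0.00123), and by -2.76 on the log2 scale without unirradiated replicate 3. The Urod probe is on the minus strand of chromosome 4 (mm9, 116662850 to 116662909).

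Both mitochondrial oxidases were lower. Cpox, coproporphyrinogen oxidase, had levels of 0.50, 0.60 and 0.57 after irradiation, against 4.25, 4.01 and 2.44 without it. It fell 8.04-fold (log2 change -3.01 ± 0.45 SE; limma adjusted p = 0.00168), and by -3.57 without unirradiated replicate 3. Ppox, protoporphyrinogen oxidase, had levels of 1.58, 1.59 and 1.62, against 3.70, 3.26 and 2.50. Its estimated decrease was the smallest of the 8 probes that fell, 2.94-fold (log2 change -1.55 ± 0.29 SE; limma adjusted p = 0.00392), and was at -1.88 without unirradiated replicate 3. The Cpox probe is on chromosome 16 at 58680403 to 58680465 of mm9, plus strand. That of Ppox spans 173207452 to 173207629 on the minus strand of chromosome 1, more than its 60 bases, so that its genomic match has a gap.

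Fech, ferrochelatase, which inserts iron into protoporphyrin and carries an iron-sulphur cluster, had levels of 2.71, 2.78 and 2.58 in irradiated spleens, against 6.06, 5.84 and 4.95 in unirradiated spleens. The lowest unirradiated pool was still more than 2 log2 units above the highest irradiated one. Fech fell 7.60-fold (log2 change -2.93 ± 0.28 SE; limma adjusted p = 0.000279), and was at -3.26 without unirradiated replicate 3. The Fech probe is on the minus strand of chromosome 18 (mm9, 64616928 to 64616987).

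**Figure D2:**
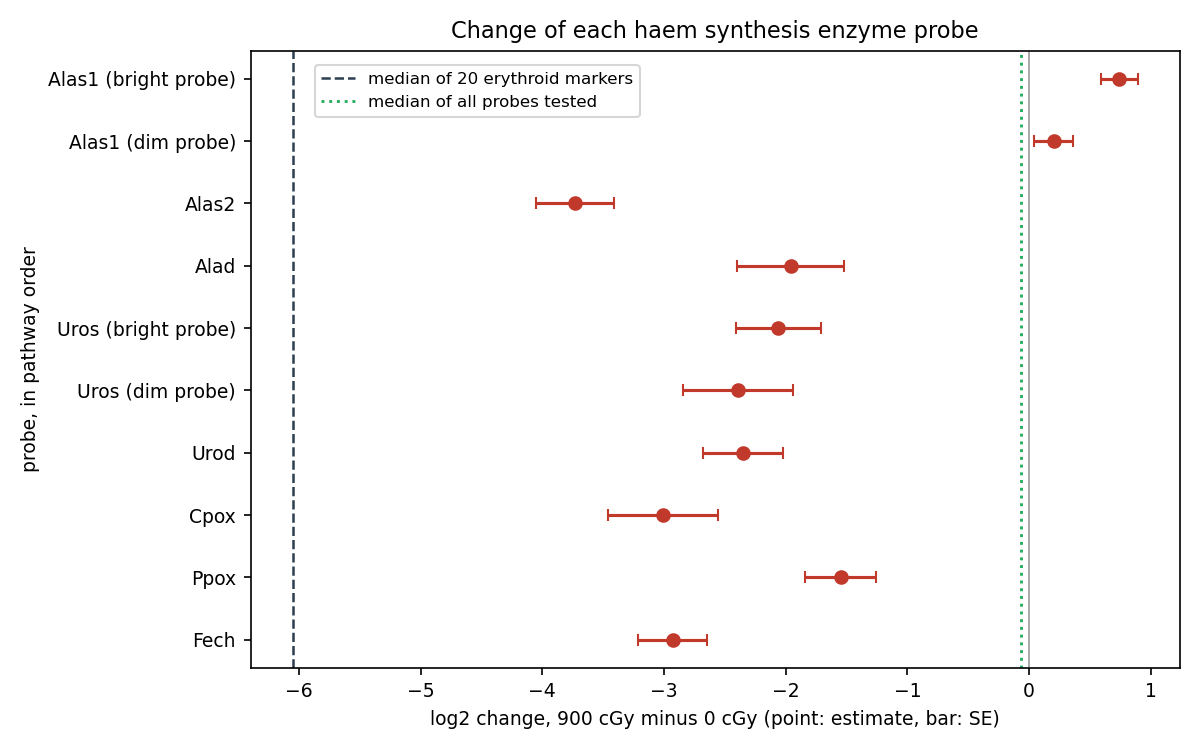
Log2 change at 900 cGy minus 0 cGy for each of the 10 probes, in pathway order from top to bottom (point, limma estimate; bar, SE; 3 pools per group), with the median of 20 erythroid markers (dashed, -6.05, or -4.87 with normexp) and of all probes tested (dotted, -0.07). Alas1 lies on the higher side, the other probes between -3.73 and -1.55, short of the erythroid median.

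The estimated decreases were largest for Alas2, Cpox and Fech and smallest for Ppox, Alad and the bright Uros probe, while the dim Uros probe was close to Urod. Taken within each array, the change of Alas2 minus that of another member was -2.18 ± 0.27 for Ppox, -1.78 ± 0.32 for Alad, -1.68 ± 0.27 for Uros (bright probe) and -1.38 ± 0.26 for Urod (SE). For Fech the difference was -0.81 ± 0.19, with a 95% interval from -1.34 to -0.27. For Cpox it was -0.73 ± 0.36, and its interval from -1.72 to 0.26 included 0. For each of these 6 pairs the exact permutation p was 0.1 (two-sided), and with 3 arrays a side no pair could have gone below that.

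Slide position was checked as a batch. All 6 arrays were on 1 slide, with the 3 unirradiated arrays and irradiated replicate 1 in row 1 and irradiated replicates 2 and 3 in row 2. Row 2 held 1 group only. Within row 1 the log2 changes were -3.46 for Alas2, -1.99 and -2.38 for the bright and dim Uros probes, -2.39 for Urod, -3.06 for Cpox, -1.57 for Ppox and -2.90 for Fech. That row sets 1 irradiated array against 3, so the spread comes from the unirradiated pools alone. On that footing the Uros probes (adjusted p = 0.0527 and 0.0584) and Ppox (adjusted p = 0.0587) did not pass in limma, while Alas2, Urod, Cpox and Fech did. A fit with row as a block takes its contrast from the same 4 arrays and so gives the same changes. An effect of slide row could not be checked with more than 1 irradiated array.

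Within the unirradiated group the genes shared their lowest pool, a pattern that rests on 1 array. Unirradiated replicate 3 was the lowest of its group for all 10 probes, as it was for 39.2% of all probes tested, and replicate 3 minus the average of the other two was -1.69 for Cpox, -1.64 for the dim Uros probe, -1.58 for Alad, -1.29 for the bright Uros probe, -1.22 for Urod, -0.98 for Ppox, -0.94 for Alas2 and -0.45 and -0.40 for the dim and bright Alas1 probes (log2), with Fech between Urod and Ppox. The erythroid markers had a median of -1.51 in the same comparison, dividing cell markers one of -1.37 and neutrophil markers one of -1.08, while B cell and T cell markers were each at 0.40. Within the erythroid list the globin genes Hba-a1 and Hbb-b2, which belong to families of near-identical copies, were at -0.25 and -0.43 and Sptb, a spectrin, at -0.38. The other 17 lay between -2.08 (Add2) and -1.24 (Trim10), below Alas2. Replicates 1 and 2 differed little from each other, by -0.48 (Alad) to 0.19 (bright Alas1 probe), replicate 2 minus replicate 1.

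On the irradiated arrays the picture differed. Alas2 was lower in replicate 3 than in replicates 1 and 2 by -0.71, and no other member was lower by more than -0.17, apart from the dim Uros probe at -0.35. Of the 20 erythroid markers, 8 were lower in that replicate by more than 0.3, 12 were not, and 4 of those 12 were higher. The share over all probes is not given for this comparison. Of those 8, Rhd and Add2 had no irradiated array well above background and Rhag had 1. Among the lower ones were Hbb-b2 at -0.74, Ahsp, the chaperone of free alpha globin, at -0.69, Slc4a1, the band 3 anion exchanger, at -0.45, and Hba-a1 at -0.37. The 4 higher ones were Ank1 at 0.65, Sptb at 0.18, Tfrc at 0.08 and Epor at 0.03. These erythroid genes were picked after their values were seen. With 1 array apart from 2, no test of this difference was possible within the group.

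**Figure D3:**
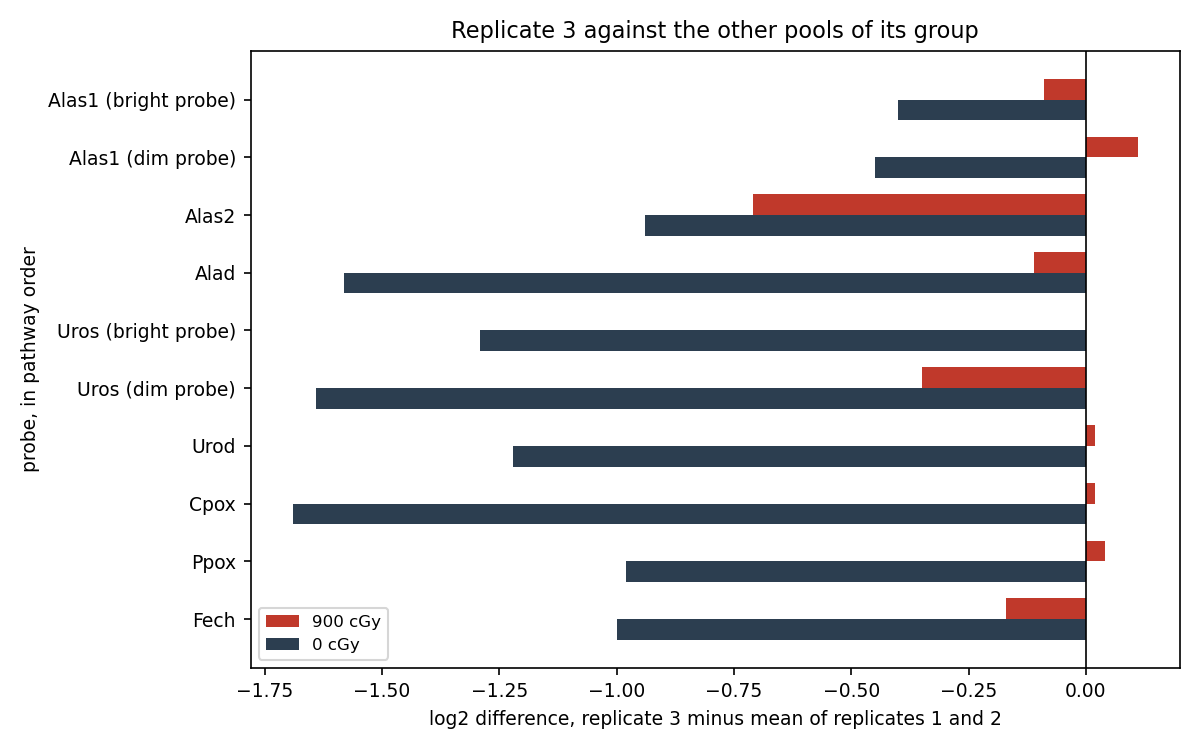
Log2 difference between replicate 3 and the mean of replicates 1 and 2 of the same group (bars; red, 900 cGy; dark blue, 0 cGy) for each probe, in pathway order from top to bottom. In the unirradiated group all 10 probes were lower in replicate 3, by -0.40 to -1.69, while in the irradiated group Alas2 stood out at -0.71.

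The decrease of the chain was smaller than that of most erythroid markers. Of 20 such markers 18 fell, none rose and 2 did not pass, with a median log2 change of -6.05 beside -0.06 for all genes tested (31% of genes were lower and 28.3% higher; 1 probe per gene). With normexp background correction the erythroid median was -4.87 and 19 were lower. Of the 20, 14 had a larger decrease than Alas2, 15 than Cpox, Fech and Urod, and 17 than Ppox, Alad and the bright Uros probe. The 6 with a smaller change than Alas2 were Tspan33, Gata1, Hbb-b2, Epor, Hba-a1 and Sptb, of which Epor and Sptb did not pass. Ahsp fell 415-fold and kept 0.241% of its signal. Rhd and Add2 had no irradiated array with a signal well above background, so the size of their decreases is uncertain. For them, irradiated signals under the lowest one flagged well above background on the same array were raised to it. They were then 362-fold and 333-fold lower. That floor is not a detection limit of these 2 probes. With normexp the fitted log2 changes of Rhd and Add2 were -6.54 and -6.15, which are smaller. At the other end Hba-a1 fell 1.66-fold and Hbb-b2 4.42-fold. Of 8 dividing cell markers 7 were tested and all 7 fell, with a median of -2.76. The erythroid genes singled out here were chosen after their values were seen.

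Markers of other cell types moved with irradiation as well, where 31% of all genes tested were lower and 28.3% higher. All 10 macrophage markers rose (median 1.97, summed log2 level 9.50 to 9.55 after irradiation, against 7.74 to 7.85 without it). All 6 B cell markers fell (median -2.82, summed log2 level 5.30 to 5.47, against 7.90 to 8.25), as did 5 of 6 T cell markers, with 1 higher (median -1.56, 4.72 to 4.75 against 5.77 to 6.25). The higher one, Cd4, did not pass with spike-in scaling or with normexp. Of 6 neutrophil markers 1 rose, 2 fell and 3 did not pass (median -0.20, 8.61 to 8.78 against 8.37 to 9.33). All 10 exocrine pancreas markers rose, by a median of 7.17, with a summed log2 level of 10.16 to 10.58 after irradiation, against 1.14, 6.84 and 4.28 in unirradiated replicates 1 to 3. Each was well above background on at least 1 array of both groups. Unirradiated replicates 1 and 2 thus differed widely in pancreas markers, and all 3 unirradiated pools were below every irradiated one. The part of the other cell types in the members' changes was not tested.

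Genes that bring substrates to the chain or move its products were lower in part. Of 20 genes of mitochondrial transport and haem trafficking, 9 fell, 4 rose and 7 did not pass (median -0.35). Over all genes tested, 31% were lower and 28.3% higher. Scaled to the spike-ins, 12 were lower and 1 higher, where 41.3% of all probes tested were lower and 16.5% higher. Slc25a37, mitoferrin 1, the mitochondrial iron importer of red cell precursors, had levels of 3.33, 3.27 and 3.24, against 7.03, 6.93 and 5.94, and fell 10.2-fold (limma adjusted p = 0.000175). Its widely expressed relative Slc25a28, mitoferrin 2, was at a log2 change of 0.08 (adjusted p = 0.427), or -0.21 with spike-in scaling. The groups did not overlap for Slc25a37, and its lowest unirradiated level was again that of replicate 3.

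Abcb10, an inner-membrane transporter that stabilises mitoferrin 1, fell 9.39-fold, and Fam210b, a mitochondrial protein that aids iron delivery to ferrochelatase, 5.41-fold. Slc25a38, which carries glycine into the mitochondrion for the first step, fell 2.40-fold. Tmem14c, which carries protoporphyrinogen towards Ppox, did not pass (log2 change -0.52, adjusted p = 0.151), although it passed on the spike-in scale (-0.81). Clpx, an unfoldase that activates aminolevulinate synthase, was at -0.19 (adjusted p = 0.158). Among those that rose was Flvcr2, a haem-binding membrane transporter, 3.16-fold (chosen after its value was seen).

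Of 15 genes of iron-sulphur cluster assembly, 9 fell, 1 rose and 5 did not pass (median -0.48; 2 rose with normexp and none with spike-in scaling). Glrx5, whose loss causes anaemia in zebrafish and humans, fell 3.92-fold, Isca1 3.83-fold and Iba57 2.94-fold. The gene that rose was Fdx1, a ferredoxin, with a log2 change of 0.52 that was 0.23 and did not pass when scaled to the spike-ins. Of 9 genes that supply succinyl-CoA and glycine, 4 fell and 5 did not pass (median -0.19). For both lists, the shares over all genes tested were 31% lower and 28.3% higher. Slc6a9, a glycine transporter of the plasma membrane that red cell precursors use, fell 4.48-fold, and Shmt2 and Shmt1, which interconvert serine and glycine, 2.52-fold and 1.36-fold. The enzymes of the citric acid cycle in that list changed little, between -0.35 (Suclg1, which passed as lower) and 0.19 (Ogdh, which did not pass).

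Among 14 genes that sense haem or regulate the chain, 9 fell, 4 rose and 1 did not pass (median -1.28). By comparison, 31% of all genes tested were lower and 28.3% higher. Scaled to the spike-ins, 10 of the 14 fell, 2 rose and the median was -1.57. Klf1, the erythroid factor that binds CACCC boxes, had levels of -5.66, -6.51 and -6.21, against 2.78, 2.19 and 0.55, and was well above background on 1 of the irradiated arrays. Gata1, which binds GATA motifs, fell 4.80-fold, and Eif2ak1, the kinase that halts translation when haem is short, 3.25-fold. Klf1 and Gata1 are also in the erythroid list, so the 2 lists are not separate. Bach2, a haem-binding repressor that B cells use, fell 11.2-fold, on arrays where B cell markers fell too. Bach1, the haem-responsive repressor of Hmox1, rose by a log2 change of 0.64, but by 0.35, not past the threshold, when scaled to the spike-ins. Nr1d1, a haem-binding nuclear receptor of the circadian clock, rose 3.67-fold. Fdx1, Suclg1, Ogdh, Bach1, Nr1d1 and Blvrb were chosen after their values were seen.

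Haem degradation went the other way. Of its 4 genes 3 rose and 1 did not pass (median 1.08), where 28.3% of all genes tested rose. Hmox1, the inducible haem oxygenase, had levels of 7.56, 7.52 and 7.65 after irradiation, against 5.58, 5.56 and 5.24 without it, a 4.34-fold increase (limma adjusted p = 6.23e-05). Blvra, a biliverdin reductase, rose 2.52-fold and Hmox2, the constitutive haem oxygenase, 1.79-fold. The fourth, Blvrb, had a log2 change of -0.49 (adjusted p = 0.21), and passed as lower when scaled to the spike-ins (-0.78). The median change of the macrophage markers on these arrays was 1.97.

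**Figure D4:**
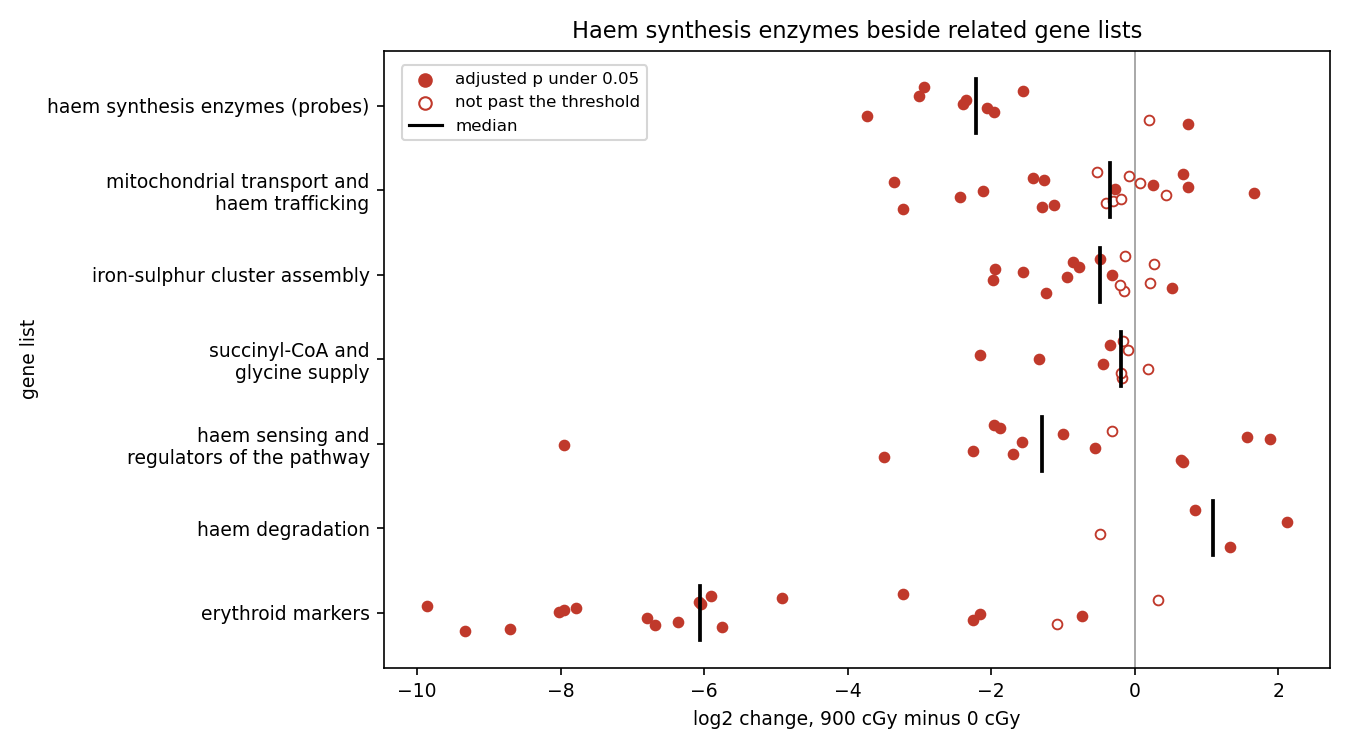
Log2 change at 900 cGy minus 0 cGy (x axis) of the 10 haem synthesis enzyme probes and of the genes of 6 related lists, 1 list per line (filled, adjusted p under 0.05; open, not past the threshold; black bar, median). The enzymes' median of -2.21 lies between that of the regulators (-1.28) and that of the erythroid markers (-6.05, or -4.87 with normexp). Klf1 and Gata1 are in both the regulator and the erythroid list. Haem degradation is the one list with a median above 0. The fitted points of Rhd and Add2 are uncertain because both were below background after irradiation.

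The genes with the profile closest to each member over the 6 arrays were sought among 17777 genes with a RefSeq symbol, by the root mean square distance between centred log2 profiles. For Alas2 they included Cdr2 and Zdhhc22, at distances of 0.127 and 0.134. The distances were smaller for Cpox, with Il1rl1, H2bc18 and Wdr62 (0.0473 to 0.0791), and for Urod, with Exo1, Cenpe and Anln (0.0287 to 0.0453). Uros was nearest to Glrx5, Ifrd2 and Rrm1, Alad to Mboat2, Kifc1 and Prtn3, Ppox to Gins2, Cacna1g and Slc25a51, and Fech to 4921504E06Rik, Cdc25b and Kif11. For Alas1 they were Cers6, Rps6ka6 and Myom1. These profiles rest on 2 groups of 3 arrays and share the difference between the groups.

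The 250 bases before the annotated starts were read from RefSeq (GRCm38) for 7 of the genes, Alas1 among them. Fech was not used here. The 7 genes have 10 such starts, 2 of them of Alas1, and the counts below are over these 10 windows. The letters GATAA, the core that GATA factors bind, were searched on both strands and so read as TTATC as well. They were present in 3 of the 10 windows, upstream of 1 start each of Alas2, Cpox and Uros, against 22.6% of 32851 windows of the same length. Both windows of Alas1 lacked them, but so did every window of Alad, Urod and Ppox, genes that fell, and the first window of Uros. In Alas2 and in Cpox the TTATC begins 86 bases before the start, and in Uros 68 bases before the second of its 2 starts. These 3 windows are shown with TTATC in capitals, and that of the upstream start of Alas1, in which neither GATAA nor TTATC is present, is shown beside them. They are Alas2 at chrX:150547167-150547416 (plus strand), Cpox at chr16:58669958-58670207 (plus), Uros at chr7:133702501-133702750 (minus) and Alas1 at chr9:106247955-106248204 (minus), each 5′ to 3′ on the strand of the gene:
Alas2: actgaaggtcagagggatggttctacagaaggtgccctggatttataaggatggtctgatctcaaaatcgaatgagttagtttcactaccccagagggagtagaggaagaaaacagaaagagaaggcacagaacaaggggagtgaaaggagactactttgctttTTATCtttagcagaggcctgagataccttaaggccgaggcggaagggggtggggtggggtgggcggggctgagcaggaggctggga
Cpox: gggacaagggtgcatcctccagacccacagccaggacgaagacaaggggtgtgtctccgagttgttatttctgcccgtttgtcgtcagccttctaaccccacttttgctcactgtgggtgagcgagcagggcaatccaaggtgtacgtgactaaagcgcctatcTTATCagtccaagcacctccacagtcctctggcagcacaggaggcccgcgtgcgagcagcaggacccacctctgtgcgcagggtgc
Uros: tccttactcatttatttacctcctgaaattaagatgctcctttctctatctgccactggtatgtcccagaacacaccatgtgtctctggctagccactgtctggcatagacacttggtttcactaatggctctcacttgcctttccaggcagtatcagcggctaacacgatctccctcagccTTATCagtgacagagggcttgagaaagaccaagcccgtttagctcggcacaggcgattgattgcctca
Alas1: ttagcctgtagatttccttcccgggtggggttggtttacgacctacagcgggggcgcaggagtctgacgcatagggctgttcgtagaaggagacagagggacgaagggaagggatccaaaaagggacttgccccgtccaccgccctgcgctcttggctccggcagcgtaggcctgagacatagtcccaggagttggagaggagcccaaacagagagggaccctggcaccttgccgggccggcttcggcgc
CACCC, read on either strand, was present in 5 of the 10 windows, against 52.0% of all windows. There were 3 matches upstream of Alas2 and 4 upstream of Cpox, and 1 upstream of the second start of Alad. Both windows of Alas1 held 1 match each, while no window of Uros, Urod or Ppox, genes that fell, held any. CACGTG was present in 4 of the 10, namely those of Urod, of both starts of Alad and of the first start of Uros, against 6.02% of all windows. No match overlapped one of another motif. These matches describe letters in a window and are no test of binding.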

How the data were processed

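Total RNA of whole splenocytes, 3 pools of 3 mice per group, was hybridised to one-colour Agilent arrays, per the labels' protocols. The scanner files were made by Agilent Feature Extraction 10.5.1.1, per the submitters' processing notes. Per the file headers, they give each spot a processed intensity, a mean intensity and a local background intensity. The authors' deposited table of processed values is on a log2 scale. Comparison with the scanner files (Pearson r between 0.99994 and 0.99997 and a slope of 1 per array) showed the same direction and centring by probe. A correlation within an array does not depend on that array's scaling, so it cannot show which scaling was used. The column medians of the table were -0.025, 0.018 and -0.0083 at 900 cGy and 0.047, -0.0059 and -0.046 at 0 cGy.

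From each log2 processed intensity, the log2 of the array's 75th percentile over 59305 non-control spots was subtracted. That percentile was 1144, 1114 and 1182 on the irradiated and 1166, 1152 and 1403 on the unirradiated arrays. Between 91 and 146 outlier spots per array were dropped, and repeat spots of a probe were averaged. A probe was fitted if either group had it well above background on each of its 3 arrays. The fit was made with limma 3.58.1 (R 4.3.3), with Benjamini-Hochberg adjustment across every probe fitted and a threshold of 0.05. Lists used the brightest probe of each gene (26642 genes). RefSeq (GRCm38) named 27235 probes through accessions, 3581 through symbols and 565 through synonyms; 24300 kept the file's name. The processing was tested on simulated data, but no outcome of that is given here and no result above rests on it.

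Members, lists and tests were chosen with earlier results of these data known. All member probes were named, together with the 3 genes of each pathway list that changed most among those past the threshold and genes acting on the same steps as the enzymes, except that a few single-gene results are not reported here; other genes are marked in the text as chosen after their values were seen. Same-numbered samples of the groups did not deviate together (correlations of 0.07, 0.11 and -0.01), so the numbers were not taken as pairs. No pair of arrays shared an identical value. Alternatives were other background correction, normalization, scaling and probe filters, the authors' table, slide row, the replicate number as a block, and leaving out each array.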

Additional observations from a re-analysis of the deposited data

How the results depend on the processing

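The count of 8 lower probes stayed at 8 under all 6 alternatives that left out 1 array and under 8 of the 11 others, and was 7 with slide row as a block (Alad did not pass). It was 7 of 8 with 1 probe per gene and 4 with slide row 1 alone. The count of 1 higher probe, the bright Alas1 probe, was 0 with spike-in scaling and 0 with slide row 1 alone. The dim Alas1 probe turned to -0.09 with spike-in scaling. With the replicate block the counts were 8 and 1, and no call changed. Over all probes tested, 10488 were higher and 12319 lower, against 6552 and 16398 with spike-in scaling and 6043 and 5968 with slide row 1 alone. The count of 1 higher T cell marker was 0 with spike-in scaling and with normexp. Over the 17 alternatives the change of Alas2 lay between -4.05 and -3.46, that of Fech between -3.26 and -2.70 and that of Cpox between -3.57 and -2.66. Unirradiated replicate 3 gave the weakest contrast, and without it all 8 decreases were larger. Why spike-in scaling and slide row move the calls was not tested, except that slide row 1 alone leaves 4 arrays. Signal over background limits the dim Uros probe.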
